A study of Mus musculus with 9 samples.

Results

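The tibialis anterior is a fast muscle of the lower leg, and bulk RNA of this muscle carries transcripts of its macrophages beside those of its fibres. The values described here are those of 10 macrophage genes among the 23231 genes of a deposited expression table, taken by gene symbol and all found: Lyz2, Cd68, Cd14, Laptm5, Tyrobp, C1qa, C1qb, C1qc, Gpnmb and Lgals3. The 9 libraries came from C57BL/6 mice aged 6 months whose muscles had been electroporated with small interfering RNA (siRNA). They form 3 groups of 3, with siRNA construct 5 against Ubr4, siRNA construct 7 against Ubr4, or a non-targeting siRNA, called the control siRNA here. Ubr4 encodes a large ubiquitin ligase. All 3 groups shared the electroporation, and muscle without it was not analysed here. The labels do not say whether the libraries came from separate animals, nor how long after electroporation the muscle was taken, so the p-values measure the spread between libraries, which may be technical.

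Macrophages live in healthy muscle between the fibres, and more of them arrive from blood monocytes when fibres are damaged. They clear debris by phagocytosis, digest it in lysosomes and signal to the satellite cells that rebuild fibres. Electroporation itself can injure fibres. Among the 10 genes, Lyz2, Cd68, Cd14, Laptm5 and Tyrobp mark macrophages broadly, C1qa, C1qb and C1qc encode the chains of complement C1q, and Gpnmb and Lgals3 are high in phagocytes that are digesting debris.

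Values are in FPKM, which corrects a read count for gene length and library size, as the authors deposited them. Whole reads could be recovered from the steps between FPKM values, and library depth lay between 29312122 and 45563545 reads. The 3 reads that serve as a floor correspond to 0.0658 to 0.102 FPKM on a gene of 1 kilobase, for counting error only. The thinnest value was that of Cd14 in construct 7 replicate 1, with 45 reads (95% exact Poisson interval 32.8 to 60.2), and the deepest library held 13618 Lyz2 reads. Ubr4 stood at 3.61, 3.80 and 2.73 FPKM with construct 5 and at 2.25, 2.58 and 3.07 FPKM with construct 7, against 7.82, 10.3 and 9.09 FPKM with the control siRNA. Construct 5 replicate 2 stood apart from the other 8 libraries in neutrophil genes. Of 11 neutrophil markers 9 were highest there, S100a9 at 17.9 FPKM (at most 0.498 elsewhere), Camp at 4.67 FPKM (at most 0.114) and Ngp at 4.27 FPKM (at most 0.027). Ly6g and Elane had values above 0 in that library alone.

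Promoter sequences are shown for the 3 genes that passed the test with construct 5 and for 2 C1q chains. The C1q genes moved together across libraries. With construct 5, Lgals3 and Gpnmb were highest in replicate 1 and the C1q genes in replicate 2. With construct 7, Lgals3, Gpnmb and the C1q genes ordered the libraries alike. RefSeq's promoter table (build GRCm38.p6) held windows for 7 of the 10 genes, and each printed run is the 250 bases before the annotated start, 5′ to 3′ on the strand of the gene. The expression table was made on mm9, so these positions serve for the sequences only. For Lyz2, C1qc, Lgals3 and Laptm5 the bases just after the start occurred in a GENCODE M21 transcript of the gene. For C1qb, Gpnmb and Cd68 they did not, so those transcripts did not bear out the start of these windows. Capitals mark the strings AGGAAGT and GAGGAA, on either strand, as found in sites of PU.1, the factor that directs the macrophage lineage, and TGANTCA, the AP-1 string. The windows are chr10:117282273-117282522 (minus strand) for Lyz2, chr4:136886201-136886450 (minus) for C1qb, chr4:136892915-136893164 (minus) for C1qc, chr6:49036268-49036517 (plus) for Gpnmb and chr14:47373610-47373859 (plus) for Lgals3.
Lyz2: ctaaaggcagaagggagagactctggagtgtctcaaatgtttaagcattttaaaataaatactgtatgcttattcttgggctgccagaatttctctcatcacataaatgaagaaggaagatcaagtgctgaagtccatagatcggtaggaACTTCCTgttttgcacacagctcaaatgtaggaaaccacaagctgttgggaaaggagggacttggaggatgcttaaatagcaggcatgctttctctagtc
C1qb: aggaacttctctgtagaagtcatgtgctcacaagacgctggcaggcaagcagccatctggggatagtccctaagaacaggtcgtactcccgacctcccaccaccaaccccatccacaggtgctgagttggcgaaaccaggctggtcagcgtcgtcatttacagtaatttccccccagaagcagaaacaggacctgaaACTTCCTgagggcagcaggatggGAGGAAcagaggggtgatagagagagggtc
C1qc: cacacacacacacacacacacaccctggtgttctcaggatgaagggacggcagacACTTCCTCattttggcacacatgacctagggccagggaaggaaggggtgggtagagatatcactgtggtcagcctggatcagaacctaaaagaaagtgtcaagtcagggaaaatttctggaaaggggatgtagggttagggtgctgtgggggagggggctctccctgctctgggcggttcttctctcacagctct
Gpnmb: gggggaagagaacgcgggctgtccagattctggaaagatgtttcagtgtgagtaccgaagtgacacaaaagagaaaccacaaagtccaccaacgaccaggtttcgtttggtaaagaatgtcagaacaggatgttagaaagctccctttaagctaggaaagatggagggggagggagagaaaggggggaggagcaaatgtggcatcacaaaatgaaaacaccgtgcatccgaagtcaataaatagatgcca
Lgals3: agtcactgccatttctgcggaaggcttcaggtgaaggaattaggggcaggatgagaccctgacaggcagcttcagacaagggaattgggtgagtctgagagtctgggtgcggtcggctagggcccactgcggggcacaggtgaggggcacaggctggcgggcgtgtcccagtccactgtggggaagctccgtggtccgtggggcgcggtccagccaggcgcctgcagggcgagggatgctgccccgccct

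AGGAAGT lay in 3 of the 7 windows, those of Lyz2, C1qb and C1qc, and in 7.69% of all 32851 windows of the same length. GAGGAA lay in 4 of 7, those of C1qb, C1qc, Cd68 and Laptm5, against 23.3% of all. In C1qc these strings overlap each other. TGANTCA lay in 1 of 7, that of Cd68, against 6.75% of all. The windows of Gpnmb and Lgals3 held none of the 3 strings in these letters. In the assembly the 3 C1q genes are direct neighbours on chromosome 4, in the order C1qb, C1qc and C1qa.

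In control muscle the 10 genes spanned a wide range of levels per length. Lyz2, the lysozyme that macrophages and neutrophils use to cut bacterial cell walls, was highest at 90.9 ± 18.8 FPKM (SD, n = 3). C1qb (16.0 ± 3.13), C1qa (14.8 ± 2.98) and Tyrobp (12.1 ± 2.89 FPKM) followed, each overlapping the next in its 3 libraries. C1qc (6.85 ± 1.56), Lgals3 (5.45 ± 1.58), Cd68 (4.82 ± 2.69) and Laptm5 (3.85 ± 0.596 FPKM) likewise overlapped neighbour by neighbour. Gpnmb (1.71 ± 0.449) and Cd14 (1.53 ± 0.223 FPKM) were lowest and overlapped each other. The gaps after Lyz2, after Tyrobp and after Laptm5 were the 3 places where neighbours in this order did not overlap. Lyz1, a near-identical neighbour of Lyz2, was listed at 1.50 to 16.5 FPKM over the 9 libraries, so some reads of the pair may be split between them. No annotated gene overlapped any of the 10 genes.

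**Figure D1:**
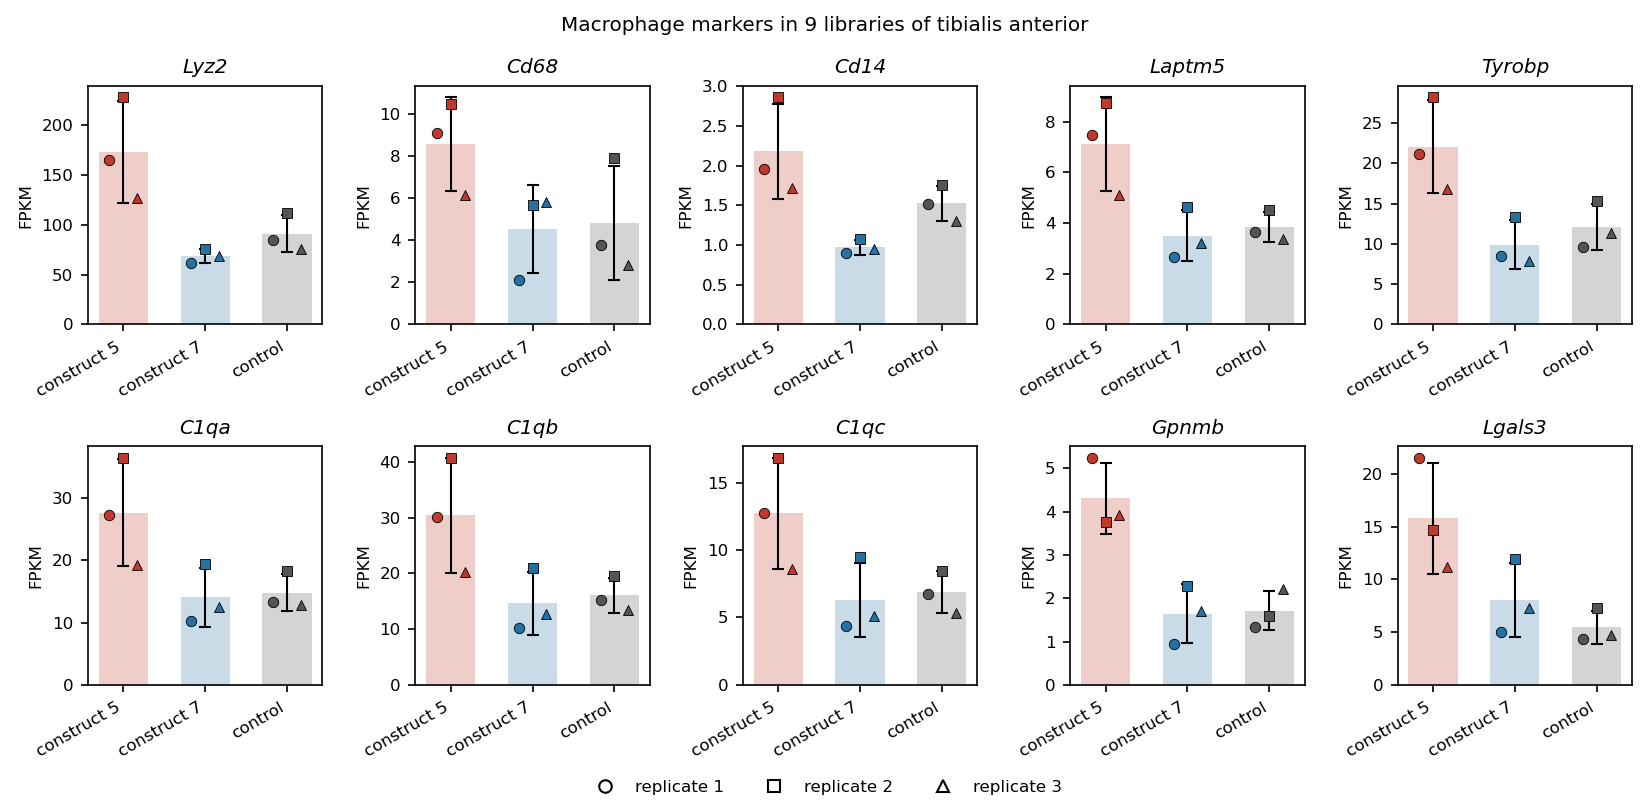
FPKM of the 10 macrophage genes in each library (points, by replicate number), with group means (bars) and SD (error bars, n = 3) for construct 5, construct 7 and the control siRNA. All 3 construct 5 libraries lie above every control library for 8 genes, and construct 7 libraries lie below every control library for Lyz2 and Cd14.

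With construct 5 every one of the 10 genes had a higher mean than with the control siRNA. Of the 10, 3 rose past the test over all genes: Lgals3, Gpnmb and Lyz2. Another 5, namely Laptm5, Tyrobp and the 3 C1q chains, lay above every control library without passing it. In bulk tissue more cells of a type and more RNA per cell cannot be told apart. limma on log2(FPKM + 1) called 4.67% of the 10794 genes tested as higher (Benjamini-Hochberg adjusted p under 0.05), against 3 of 10 here. The 10 genes and the lists of related genes were chosen with earlier results of these data known. Shares over all genes, here and below, are therefore given for scale only and are not a test. For the looser counts the background was high: 33.0% of all genes lay above every control library, against 8 of 10, and 76.7% had a log2 change above 0, against 10 of 10. The median log2 change of the 10 genes was 0.82, beside 0.13 for all genes tested. With median-ratio scaling, which brings the median of all genes to 0.01, the median of the 10 was 0.68 and all 10 stayed above 0.

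Lgals3 encodes galectin 3, a lectin that binds galactose-containing sugars and gathers on damaged lysosomes. It stood at 21.5, 14.6 and 11.2 FPKM with construct 5, against 4.33, 7.26 and 4.76 FPKM with the control siRNA. The lowest construct 5 library was above the highest control library. The means were 15.8 ± 5.27 with construct 5 and 5.45 ± 1.58 FPKM with the control siRNA (SD, n = 3 each), a log2 change of 1.36 (SE 0.301, limma adjusted p = 0.0476).

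Gpnmb, a membrane glycoprotein of phagocytes with heavily loaded lysosomes, stood at 5.25, 3.76 and 3.92 FPKM with construct 5, against 1.33, 1.59 and 2.21 FPKM with the control siRNA. The groups did not overlap, and the log2 change was 0.97 (SE 0.197, limma adjusted p = 0.0409). Lyz2 stood at 165, 228 and 127 FPKM with construct 5, against 84.6, 112 and 76.1 FPKM with the control siRNA. The lowest construct 5 library, replicate 3, was above the highest control library, and the log2 change was 0.90 (SE 0.207, limma adjusted p = 0.0491). Neutrophils also make lysozyme, and whether the neutrophil genes of construct 5 replicate 2 had a part in the Lyz2 values was not tested. The ratio of Lyz2 to C1qa was 6.23 in that library, against 6.05 and 6.58 in construct 5 replicates 1 and 3. Lyz1 stood at 16.5 FPKM in that library, against 5.59 and 4.35 FPKM in construct 5 replicates 1 and 3. Without construct 5 replicate 2 the log2 change of Lyz2 was 0.68 (limma adjusted p = 0.084), that of Gpnmb 1.05 (0.0696) and that of Lgals3 1.39 (0.0824). Those of the C1q chains fell too, from 0.83 to 0.61 (C1qa), 0.84 to 0.61 (C1qb) and 0.78 to 0.57 (C1qc).

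Among the other pan-macrophage genes, Tyrobp and Laptm5 were also above every control library. Tyrobp, the adaptor DAP12 that carries signals from activating receptors through its tyrosine motif, stood at 21.2, 28.2 and 16.9 FPKM with construct 5, against 9.68, 15.3 and 11.4 FPKM with the control siRNA (log2 change 0.81, limma adjusted p = 0.0673). Laptm5, a lysosomal membrane protein of blood-derived cells, stood at 7.47, 8.76 and 5.10 FPKM with construct 5, against 3.65, 4.53 and 3.39 FPKM with the control siRNA (0.72, adjusted p = 0.0601).

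Cd68 and Cd14 were the 2 genes whose groups overlapped. Cd68, a glycoprotein of the lysosomal membrane, stood at 9.06, 10.5 and 6.13 FPKM with construct 5, against 3.77, 7.88 and 2.81 FPKM with the control siRNA (log2 change 0.78, 95% interval -0.04 to 1.61, limma adjusted p = 0.175). Its control replicate 2 lay above construct 5 replicate 3. Cd14, the co-receptor that hands bacterial lipopolysaccharide to Toll-like receptor 4, stood at 1.96, 2.86 and 1.72 FPKM with construct 5, against 1.52, 1.75 and 1.31 FPKM with the control siRNA (0.32, 95% interval 0.03 to 0.61, adjusted p = 0.127). On a scale with 1 FPKM added, the change of so low a gene is understated, and on recovered reads it was 0.52 (voom, adjusted p = 0.127).

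The chains of C1q, which binds antibody complexes and dying cells to start the complement cascade, kept step with each other. C1qa stood at 27.2, 36.5 and 19.2 FPKM with construct 5, against 13.3, 18.2 and 12.9 FPKM with the control siRNA (log2 change 0.83, limma adjusted p = 0.0796). C1qb stood at 30.2, 40.8 and 20.2 FPKM with construct 5, against 15.2, 19.5 and 13.4 FPKM with the control siRNA (0.84, adjusted p = 0.0939). C1qc stood at 12.7, 16.8 and 8.57 FPKM with construct 5, against 6.75, 8.46 and 5.35 FPKM with the control siRNA (0.78, adjusted p = 0.106). In all 3 genes construct 5 replicate 3 exceeded the highest control library by a small margin. The calls with construct 5 depended on single libraries. Without any 1 control library, construct 5 replicate 1, construct 5 replicate 2 or construct 7 replicate 3, 0 of the 10 genes passed limma's test, although the median log2 change in these fits stayed between 0.62 and 0.98. Without construct 7 replicate 1 there were 2 calls, and without construct 5 replicate 3 or construct 7 replicate 2 there were 4. With median-ratio scaling 0 of 10 passed as well, with 78 genes called in all (14 higher and 64 lower) in place of 569 (504 higher and 65 lower).

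**Figure D2:**
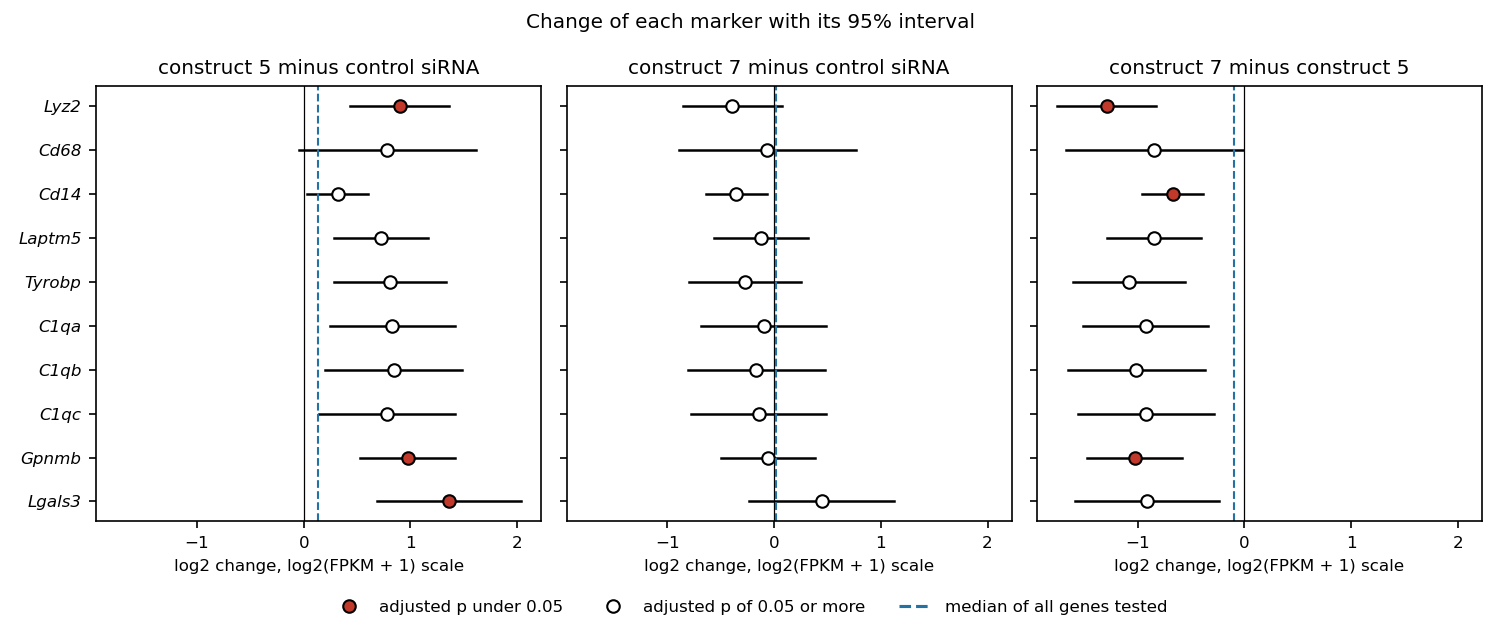
Log2 change on the log2(FPKM + 1) scale with its 95% interval from limma for each gene, in 3 comparisons; filled points passed at an adjusted p under 0.05 and the dashed line is the median of all genes tested. The changes with construct 5 lie between 0.32 and 1.36, those with construct 7 between -0.39 and 0.44.

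With construct 7 the 10 genes were not raised as a group, and 9 of them had means below those of the control siRNA. limma called 0 of 10, and so did voom on the recovered reads, while Cd14 alone (1 of 10) had an unadjusted limma p under 0.05, as did 9.47% of all genes tested. Of all genes tested 0.0556% were called lower. A log2 change below 0 was found in 43.0% of all genes, against 9 of 10 here, with a median of -0.13 for the 10 and 0.02 for all. Every construct 7 library was below every control library in 6.26% of all genes and in 2 of the 10, Cd14 and Lyz2.

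Cd14 stood at 0.899, 1.08 and 0.945 FPKM with construct 7, against 1.52, 1.75 and 1.31 FPKM with the control siRNA (log2 change -0.35, 95% interval -0.64 to -0.07, limma adjusted p = 0.421). Lyz2 stood at 61.5, 75.4 and 68.1 FPKM with construct 7, against 84.6, 112 and 76.1 FPKM with the control siRNA (-0.39, 95% interval -0.86 to 0.07, adjusted p = 0.609). The highest construct 7 library for Lyz2 was just below the lowest control library.

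Lgals3 was the only gene of the 10 with a higher mean. It stood at 5.02, 11.9 and 7.25 FPKM with construct 7, against 4.33, 7.26 and 4.76 FPKM with the control siRNA (log2 change 0.44, 95% interval -0.23 to 1.12, limma adjusted p = 0.698). Construct 7 replicate 2 was above every control library and the other two lay within the control range. Gpnmb stood at 0.933, 2.28 and 1.72 FPKM with construct 7, against 1.33, 1.59 and 2.21 FPKM with the control siRNA, so that the construct 7 libraries reached past the controls on both sides (-0.06, 95% interval -0.50 to 0.39).

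The remaining genes overlapped the control range. C1qa stood at 10.3, 19.4 and 12.5 FPKM, C1qb at 10.2, 20.9 and 12.8, and C1qc at 4.37, 9.44 and 5.12 FPKM with construct 7. In each C1q chain the construct 7 values ran from below the lowest to above the highest control library. Tyrobp stood at 8.46, 13.4 and 7.90 FPKM, Laptm5 at 2.67, 4.63 and 3.22, and Cd68 at 2.12, 5.65 and 5.82 FPKM with construct 7. The 95% interval of the change was -0.68 to 0.49 for C1qa, -0.80 to 0.25 for Tyrobp and -0.89 to 0.77 for Cd68, widths that leave room for a change in either direction. Leaving out 1 library moved the median log2 change of the 10 genes from -0.36 (without construct 7 replicate 2) to 0.04 (without construct 7 replicate 1), so its sign depended on a single library.

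Set directly against each other, the constructs differed in 3 of the 10 genes. Lyz2, Gpnmb and Cd14 were lower with construct 7 than with construct 5 past the test, and all 10 had log2 changes below 0, from -0.67 to -1.29 with a median of -0.93. limma called 1.07% of all genes lower in this comparison, against 3 of 10. Changes below 0 made up 75.5% of all genes, whose median was -0.10, against 10 of 10. Every construct 7 library was below every construct 5 library in 22.4% of all genes and in 6 of the 10, these 3 genes with Tyrobp, Laptm5 and Cd68. This comparison and the comparison of construct 5 with the controls share the construct 5 libraries.

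Lyz2 averaged 68.3 ± 6.94 FPKM with construct 7 and 173 ± 51.1 FPKM with construct 5 (SD, n = 3 each; log2 change -1.29, SE 0.207, limma adjusted p = 0.0325). Gpnmb averaged 1.64 ± 0.676 FPKM with construct 7 and 4.31 ± 0.816 FPKM with construct 5 (-1.03, SE 0.197, adjusted p = 0.0471). Cd14 averaged 0.973 ± 0.0918 FPKM with construct 7 and 2.18 ± 0.603 FPKM with construct 5 (-0.67, SE 0.128, adjusted p = 0.0471). The added 1 FPKM understates the low genes here too: on recovered reads Cd14 had -1.16, Gpnmb -1.43 and Lyz2 -1.30 (voom). Tyrobp had -1.09 (adjusted p = 0.059) and passed on recovered reads (voom, adjusted p = 0.048). Lgals3, which had the largest change with construct 5, had -0.91 here (95% interval -1.59 to -0.24, limma adjusted p = 0.132), with construct 7 replicate 2 above construct 5 replicate 3. With median-ratio scaling Lyz2 alone passed (adjusted p = 0.0444). Without construct 5 replicate 1, construct 5 replicate 2, control replicate 1, construct 7 replicate 1 or construct 7 replicate 3, 0 of the 10 passed limma's test, 1 passed without control replicate 2 or control replicate 3, 4 passed without construct 5 replicate 3, and 8 passed without construct 7 replicate 2. The median log2 change over these fits ran from -1.20 to -0.74.

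The mean of both constructs against the control siRNA called 0 of the 10 genes in limma, and 0 by voom. An unadjusted p under 0.05 was found for 2 of 10 (Gpnmb and Lgals3) and for 19.1% of all genes tested. Of all genes 0.00926% were called lower, and 72.0% had a log2 change above 0, against 9 of 10 here. Lgals3 had 0.90 (95% interval 0.32 to 1.49, limma adjusted p = 0.135). It was above every control library in 4 of 6 Ubr4 siRNA libraries, and the exact two-sided permutation test of 6 libraries against 3 gave p = 0.0714, where 0.0238 is the smallest possible. The other 9 had exact permutation p-values from 0.262 (Gpnmb) to 0.857 (Cd14) in this comparison. For 3 libraries against 3 that test cannot go below 0.1, the value it gave for each gene whose groups did not overlap.

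The libraries of a group were ordered alike by most of the 10 genes. Replicate 2 was the highest library in 8 of 10 genes with construct 5, in 9 of 10 with construct 7 and in 9 of 10 with the control siRNA. Construct 5 replicate 3 was the lowest of its group in 9 genes, and construct 7 replicate 1 the lowest of its group in 9. Some genes departed from this order. With construct 5, Gpnmb and Lgals3 were highest in replicate 1, and with the control siRNA Gpnmb was highest in replicate 3. With construct 7, Cd68 was highest and Tyrobp lowest in replicate 3. The mean log2 value of the 10 genes relative to the control mean was 0.92, 1.11 and 0.46 in construct 5 replicates 1, 2 and 3. It was -0.47, 0.26 and -0.16 in construct 7 replicates 1, 2 and 3, against -0.12, 0.29 and -0.16 in control replicates 1, 2 and 3. Summed over the 10 genes, the level was 219 to 390 FPKM with construct 5 and 107 to 164 FPKM with construct 7, against 134 to 196 FPKM with the control siRNA.

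Ratios within a library remove what the genes share, and 9 of them were computed after the values had been seen, so they are given without a test. The C1q chains held nearly fixed proportions. C1qb over C1qa ran from 0.987 to 1.15 over all 9 libraries, and C1qc over C1qa from 0.409 to 0.508, while C1qa itself ran from 10.3 to 36.5 FPKM. Lgals3 was high relative to C1qa in both Ubr4 siRNA groups. The ratio was 0.791, 0.401 and 0.581 with construct 5 and 0.486, 0.615 and 0.579 with construct 7, against 0.326, 0.398 and 0.370 with the control siRNA, without overlap for either construct although construct 5 replicate 2 came close. Relative to Lyz2, Lgals3 was 0.131, 0.0643 and 0.0884 with construct 5 and 0.0816, 0.158 and 0.106 with construct 7, against 0.0512, 0.0648 and 0.0626 with the control siRNA, so that construct 5 overlapped the controls on this measure. Gpnmb over Lyz2, Cd68 over C1qa and Tyrobp over Laptm5 overlapped the controls for both constructs.

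Cd14 over C1qa went the other way. It was 0.0720, 0.0784 and 0.0892 with construct 5 and 0.0870, 0.0556 and 0.0755 with construct 7, against 0.114, 0.0961 and 0.101 with the control siRNA. Every Ubr4 siRNA library was below every control library, on 45 to 205 Cd14 reads per library. With construct 5, Cd14 itself was not lower: its log2 change was 0.32, against 0.83 for C1qa. The share of all genes that separate in their ratio to C1qa was not computed, for Cd14 or for Lgals3 above. Lyz2 over C1qa was 6.05 to 6.58 with construct 5, against 5.90 to 6.37 with the control siRNA, and with construct 7 it was 5.96, 3.89 and 5.44, replicate 2 being the lowest of all 9.

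**Figure D3:**
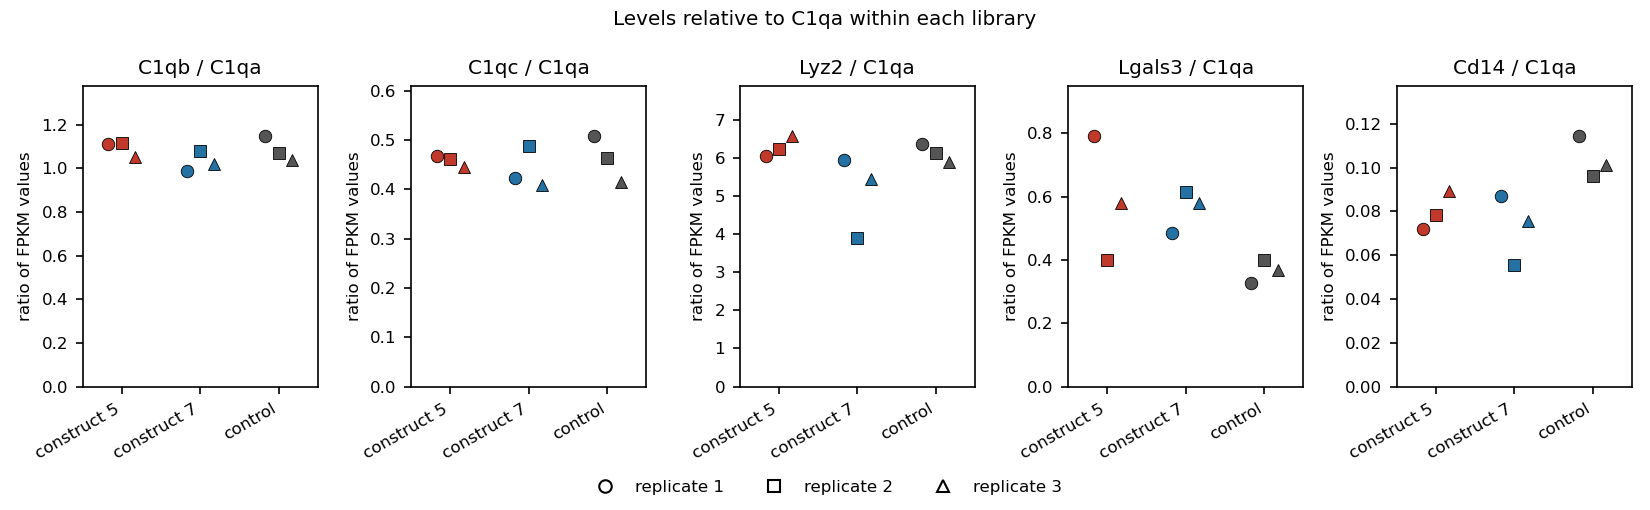
Ratio of FPKM values within each library (points, by replicate number) for construct 5, construct 7 and the control siRNA; each vertical axis starts at 0. C1qb over C1qa stays between 0.987 and 1.15. Lgals3 over C1qa is higher in the Ubr4 siRNA libraries than in any control library, and Cd14 over C1qa is lower. For Lgals3 the margin is narrow in construct 5 replicate 2 (0.401, against 0.398 in control replicate 2). Its ratio to Lyz2, not drawn here, overlaps the controls with construct 5.

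Other macrophage genes moved with construct 5 in the same direction as these 10. Of 30 further macrophage and myeloid genes 21 were tested, and all 21 had log2 changes above 0 with construct 5, against 76.7% of all genes (median 0.59, against 0.13 for all genes). Fcgr2b, an inhibitory antibody receptor (0.67, adjusted p = 0.049), and Ptprc, the leukocyte phosphatase CD45 (0.64, adjusted p = 0.0494), rose past limma's test, which called 4.67% of all genes higher. Fcgr2b was also lower with construct 7 than with construct 5 (-0.80, adjusted p = 0.0471). With construct 7 the median was -0.04 (0.02 for all genes) and 0 of 21 passed, where limma called 0 of all genes higher and 0.0556% lower. Of 14 genes linked to resident and alternatively activated macrophages 8 were tested, with medians of 0.38 for construct 5 and -0.17 for construct 7 and 0 passing in either. Retnla, a secreted protein of alternatively activated macrophages, averaged 64.9 ± 24.4 FPKM with construct 5 and 12.0 ± 5.26 FPKM with construct 7, against 25.6 ± 13.4 FPKM with the control siRNA (SD, n = 3). It was lower with construct 7 than with construct 5 past limma's test (-2.37, adjusted p = 0.0475), as was the carbonyl reductase Cbr2 (-0.76, adjusted p = 0.0335). Cbr2 averaged 15.8 ± 1.05 FPKM with construct 5 and 8.999 ± 1.55 FPKM with construct 7, against 16.1 ± 1.98 FPKM with the control siRNA (SD, n = 3), and every construct 7 library was below those of both other groups.

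Genes that work beside the markers mostly had log2 changes above 0 with construct 5, as did 76.7% of all genes tested. Of 23 lysosomal and lipid-handling genes of phagocytes 19 were tested, with a median log2 change of 0.34 with construct 5 (0.13 for all genes). Of these 19, 16 were above 0 and 3 rose past limma's test, which called 4.67% of all genes higher. The tetraspanin Cd63 (0.45, adjusted p = 0.0492) and the lipid droplet protein Plin2 (0.59, 0.0406) were among those that rose past limma's test. With construct 7 the median was -0.07 (0.02 for all genes) and 0 of 19 passed, where limma called 0 of all genes higher and 0.0556% lower. Among 18 further complement genes 11 were tested (median 0.32 with construct 5 and -0.07 with construct 7). With construct 5, 10 of these 11 were above 0 and 2 rose past limma's test. Properdin (Cfp), which stabilises the complement convertase, rose with construct 5 (0.72, adjusted p = 0.0492), and Cd55, which breaks that convertase down, rose as well (0.71, adjusted p = 0.0344). Both were lower with construct 7 than with construct 5 (Cfp -0.90, adjusted p = 0.0463, and Cd55 -0.55, adjusted p = 0.0443). That comparison called 1.07% of all genes lower, against 2 of 11 here.

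Of 11 partners of Cd14 in Toll-like receptor signalling 8 were tested, with a median of 0.27 with construct 5 (0.13 for all genes), or 0.17 with median-ratio scaling. Of these 8, all were above 0, against 76.7% of all genes, or 7 with that scaling. Tlr2, the receptor for bacterial lipoproteins, passed (0.56, adjusted p = 0.049). Of 12 genes of Tyrobp signalling only the kinase Lyn (0.23, adjusted p = 0.219) and the phosphatase Ptpn6 (0.47, adjusted p = 0.0907) were abundant enough to test with construct 5. Monocyte chemokines and growth factors had a median of 0.67 with construct 5 over 8 tested of 14, with 0 passing. Ccl6, a chemokine of myeloid cells, averaged 4.29 ± 0.565 FPKM with construct 7 and 12.7 ± 4.68 FPKM with construct 5 (SD, n = 3 each), a difference past limma's test (-1.33, adjusted p = 0.0488). Of 10 genes of acute inflammation 1 reached the level tested, Nos2, at 2.00 ± 0.639 FPKM with construct 5 and 2.10 ± 0.642 FPKM with construct 7, against 1.97 ± 0.339 FPKM with the control siRNA (SD, n = 3).

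The 10 genes outside the set whose pattern over the 9 libraries lay nearest to that of the markers were found by the root mean square difference of centred log2 values from the mean profile of the 10. They were Fcgr3 (0.0811), Cyba (0.097), H2-Aa (0.119), Anxa1 (0.121), Fcer1g (0.127), Ly86 (0.131), Unc93b1 (0.133), Fcgr2b (0.143), H2-Ab1 (0.147) and Cotl1 (0.152). Across all genes tested the median difference was 0.468. Of the markers themselves Laptm5 (0.0729) and C1qa (0.0751) lay nearest to the profile and Lgals3 (0.326) farthest. Fcgr3 and Fcer1g encode an antibody receptor and its signalling chain, Cyba a subunit of the phagocyte oxidase, and H2-Aa and H2-Ab1 the chains of an antigen-presenting molecule.

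Markers of other cells also differed between the groups, and their part in the values above was not tested. Summed over 10 fibroblast markers the level was 605 to 976 FPKM with construct 5, above every control library, and 410 to 487 FPKM with construct 7, below every control library, against 542 to 600 FPKM with the control siRNA. Col1a2, a chain of type I collagen, rose with construct 5 (0.61, limma adjusted p = 0.0491). It was lower with construct 7 than with construct 5 (-1.14, adjusted p = 0.0174), as were Col1a1 (-1.28, 0.0201) and Col3a1 (-1.09, 0.0443). Dendritic cell markers, among them antigen-presenting genes that macrophages also carry, summed to 211 to 403 FPKM with construct 5 and 147 to 198 FPKM with construct 7, against 157 to 209 FPKM with the control siRNA. Of these 11 genes 5 were tested, and Cd209a was lower with construct 7 than with construct 5 (-0.54, adjusted p = 0.0471).

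Satellite cell genes summed to 33.2 to 55.8 FPKM with construct 5 and 23.1 to 36.6 FPKM with construct 7, against 21.5 to 28.6 FPKM with the control siRNA. Myod1 (0.76, limma adjusted p = 0.104) and Myog (1.02, 0.0589), the factors that drive their differentiation, did not pass with construct 5. Neutrophil markers summed to 1.04 and 1.56 FPKM in construct 5 replicates 1 and 3, 44.2 FPKM in replicate 2 and 0.979 to 1.60 FPKM with construct 7, against 0.596 to 2.02 FPKM with the control siRNA. The most abundant, S100a8 and S100a9, had limma adjusted p-values of 0.447 and 0.255 with construct 5. Markers of T and natural killer cells summed to 2.13 to 4.65 FPKM with construct 5 and 1.08 to 4.63 FPKM with construct 7, against 1.54 to 1.69 FPKM with the control siRNA. None of those 10 genes reached 1 FPKM on average. Of 8 B and plasma cell markers only Ighm, the heavy chain of immunoglobulin M, was abundant enough to test, and it fell with construct 5 (-1.13, limma adjusted p = 0.0468).

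Endothelial markers summed to 89.8 to 117 FPKM with construct 5 and 92.4 to 104 FPKM with construct 7, against 92.8 to 108 FPKM with the control siRNA, and 0 of 8 passed limma's test in any comparison. Pecam1 had 0.00 and Cdh5 -0.04 with construct 5. Mast cell markers summed to 3.09 to 6.62 FPKM with construct 5 and 2.79 to 5.97 FPKM with construct 7, against 4.53 to 5.83 FPKM with the control siRNA. The mast cell proteases Mcpt4 (-0.13, limma adjusted p = 0.685) and Cma1 (-0.14, 0.735) did not pass with construct 5. Fibre genes summed to 68618 to 76525 FPKM with construct 5 and 63637 to 78845 FPKM with construct 7, against 76315 to 81391 FPKM with the control siRNA. The alpha-actin gene Acta1 had -0.14 (limma adjusted p = 0.447) and the creatine kinase gene Ckm -0.07 (0.702) with construct 5. With median-ratio scaling, of the genes named from all these lists, only Cd55 still passed with construct 5 (adjusted p = 0.0324). Between constructs only Col1a1 (0.0325) and Col1a2 (0.0278) still did.

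**Figure D4:**
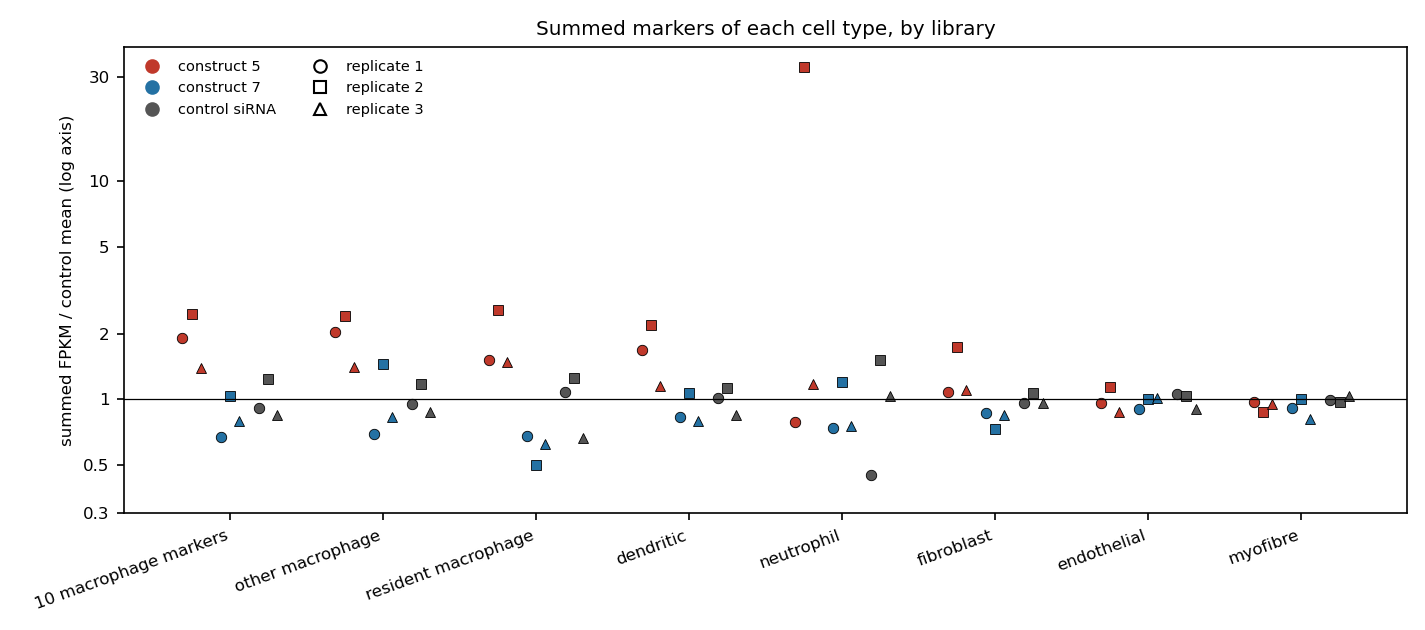
Summed FPKM of marker lists in each library divided by the control mean of that list, on a log axis, with construct 5 left of construct 7 and the control siRNA within each list. The sums of the 10 markers and of the other and resident macrophage lists are above the control range in all 3 construct 5 libraries. So are those of the dendritic and fibroblast lists. A sum follows its most abundant genes, such as Lyz2 among the 10 markers and Retnla in the resident list with construct 5. The neutrophil sum stands out in construct 5 replicate 2 alone, and the endothelial sums overlap between groups.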

How the data were processed

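The authors deposited 1 table of FPKM values for 23231 genes in 9 libraries of total RNA from tibialis anterior muscle. The submitters' processing notes name BWA, STAR, HTSeq and mm9; versions and the part each played are not given in the sources used here. All 9 columns were matched to samples by the library names in the labels.

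The 10 genes and the lists of related genes were chosen with earlier results of these data known. Genes with a mean of at least 1 FPKM over the 9 libraries (10794) were tested on log2(FPKM + 1) with limma 3.58.1 in R 4.3.3, in 1 fit of all 9 libraries with a trended prior, and p-values were adjusted by Benjamini-Hochberg over all genes tested, with 0.05 as the threshold. Single genes were also tested by exact permutation of libraries.

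Depth came from the steps of low FPKM values, with gene lengths from GENCODE M21 or, where these gave no whole reads, the shortest whole length that did. Of the tested genes 99.1% (10696) gave whole reads in all 9 libraries within 0.05 reads, which gave the Poisson intervals and the input of voom, an alternative added after the data were seen. Intervals and floors cover counting error only.

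Named were the 10 genes, Ubr4, the called members of each other list (the 2 most abundant where there were none) and the 10 nearest patterns, except for a list member that is not reported here. Alternatives were a pseudocount of 0.1, median-ratio scaling, no filter or one at 5 FPKM, the compared groups alone, a replicate block and each library left out. Whether reads were counted by strand is not stated. Figures were drawn with Python 3.11.15 and matplotlib 3.10.9.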

Additional observations from a re-analysis of the deposited data

Results flagged for a closer look

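The effect of the 2 constructs differed past limma's test in 3 of the 10 genes, with log2 differences (construct 7 minus construct 5) of -1.29 for Lyz2, -1.03 for Gpnmb and -0.67 for Cd14. These are on the log2(FPKM + 1) scale, which understates low genes, and on recovered reads (voom) the differences were -1.30 for Lyz2, -1.43 for Gpnmb and -1.16 for Cd14. For Lyz2 every construct 7 library was below every control library and every construct 5 library above it.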

How the results depend on the processing

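Under the alternatives the 177 log2 changes of single genes with construct 5 all kept their sign, as did the 177 between constructs, while 9 of 177 changed sign with construct 7 and 3 of 177 for the mean of both constructs, none of them called. The number of the 10 genes called with construct 5 (3) was 1 with a pseudocount of 0.1, 0 with no filter, 0 with median-ratio scaling, 0 with the replicate block and 0 with that scaling and without construct 5 replicate 1 or 2. Between constructs (3) it was 0 with no filter, 1 at a filter of 5 FPKM, 1 with median-ratio scaling, 0 in the groups compared alone, 7 with the replicate block and 0 with scaling and without construct 5 replicate 1 or 2. Leaving out 1 library gave 0 to 4 with construct 5, 0 to 8 between constructs, and 0 with construct 7 or both constructs. Of all genes, 569 were called with construct 5, against 316 with a pseudocount of 0.1, 5 with no filter, 204 at 5 FPKM, 78 with scaling, 246 in the groups alone and 11 with the block. The counts were 4 and 34 with scaling and without construct 5 replicate 1 or 2, and 1 to 578 without 1 library. Between constructs 132 were called, against 10 with no filter, 48 at 5 FPKM, 79 with scaling, 23 in the groups alone, 217 with the block, 198 by voom, 19 and 27 with scaling and without construct 5 replicate 1 or 2, and 3 to 376 without 1 library. With construct 7, 6 were called, against 0 with no filter, 2 in the groups alone, 4 with scaling and without construct 5 replicate 2, and 0 to 5 without 1 library. For the mean of both, 1 was called, against 0 with no filter, 2 at 5 FPKM, 4 with the block, 2 by voom, 3 with scaling and without construct 5 replicate 2, and 0 to 7 without 1 library. Without 1 library, a group of 2 is assumed to vary like the others. The causes were not tested. Replicate numbers are shared between groups. Across genes, the deviations of same-numbered libraries correlated at -0.364 to 0.313, and those of other pairs at -0.566 to 0.518. In the 10 genes replicate 2 was highest in 8 with construct 5, in 9 with construct 7 and in 9 with the control siRNA. Whether a number stands for a batch or a pairing is not stated in the labels and was not tested. Cd14 is limited by depth, at 45 to 205 reads.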
